A study of Schizosaccharomyces pombe with 70 samples.

Results

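Fission yeast (Schizosaccharomyces pombe) carries several DNA repair systems, and 9 genes of these systems are described here: rad54, rad50, nbs1, rad2, rad13, rad16, rhp16, exo1 and uve1. They were taken by symbol from the annotation of the array's probes, and each was measured by 2 probes that were averaged. They are 9 of 4929 gene features on the array, of which 4921 could be tested, and all 9 were tested. Asynchronous cultures growing at mid log phase were treated with 8 mM hydroxyurea (HU), which inhibits ribonucleotide reductase and so starves DNA replication of nucleotides, and were sampled at 0, 10, 30, 60 and 120 min. The strains were single mutants of rad3, cds1 and chk1, a rad3 sep1 double mutant, and wild type. The labels name the mutated genes but not the alleles or the rest of the genotypes. Each value is the log2 ratio of the sample to RNA of untreated wild-type cells, so that 0 means the level of that RNA. A log2 ratio compares a gene with itself between samples and gives no level relative to other genes.

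There were 70 arrays, 3 per time for wild type and each single mutant and 2 per time for rad3 sep1. In 9 pairs of arrays of one group, gene-by-gene differences on one probe were nearly uncorrelated with those on the other (r at most 0.0317). A shift of a whole array does not enter this criterion. The median difference within the averaged rad3 sep1 pairs ran from -0.068 at 30 min to 0.156 at 0 min. Each of the 9 pairs was counted as 1 sample. This left 61 samples: 14 of rad3, 15 of cds1, 14 of chk1, 5 of rad3 sep1 and 13 of wild type. The rad3 sep1 strain therefore has 1 sample per time, and its tests assume that it varies like the other strains. The genes named in the genotypes were low in their own strains: rad3 averaged -2.20 in rad3 and -2.36 in rad3 sep1, against -0.18 in wild type. The cds1 transcript averaged -2.45 in cds1, against 0.29 in wild type, and that of chk1 -1.37 in chk1, against -0.53 in wild type. The sep1 transcript averaged -3.54 in rad3 sep1, against -0.09 in wild type.

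Breaks and stalled replication forks are repaired by homologous recombination. In that pathway the Mre11-Rad50-Nbs1 complex binds and trims broken DNA ends, and Rad54, a DNA translocase, helps the broken DNA to pair with intact duplex DNA. Nucleotide excision repair cuts out bulky lesions with the nucleases Rad13 (XPG in human) and Rad16 (XPF in human), and Rhp16, a homologue of budding yeast Rad16, acts in recognising lesions outside transcribed strands. Rad2 (FEN1 in human) removes flaps in lagging-strand synthesis and repair, Exo1 is an exonuclease of mismatch repair and end resection, and Uve1 is a UV damage endonuclease that opens an alternative excision pathway. Rad3 is the apical checkpoint kinase, Cds1 and Chk1 are its effector kinases for stalled replication and DNA damage, and Sep1 is a forkhead transcription factor.

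The late response, which sets 60 and 120 min (averaged) against 0 min, went in opposite directions among the 9 genes. Transcripts of rad54 rose in cds1, chk1 and wild type, and rhp16 rose in cds1. Transcripts of rad16 fell in cds1, chk1 and wild type, while rad50 and uve1 fell in wild type. With limma and Benjamini-Hochberg adjustment over all genes at 0.05, 0 of 9 genes passed in rad3, against 19.3% of all genes. In cds1 3 of 9 passed (2 up, 1 down; 25% of all genes), and in chk1 2 of 9 (1 up, 1 down; 27.5% of all genes). In rad3 sep1 0 of 9 passed, against 16.2% of all genes. Wild type had 4 of 9 (1 up, 3 down; 24.4% of all genes). At an unadjusted p under 0.05 the 2 counts of 0 became 3 in rad3 and 2 in rad3 sep1, and limma with robust eBayes also gave 0 in both. Other settings did call genes: rhp16 passed in rad3 when arrays were centred and with all 70 arrays as samples. With the replicate number as a block rad2, rad16 and rhp16 passed in rad3. That block added nbs1 and rad13 in cds1, and rad2, rad13 and exo1 in wild type. With all 70 arrays as samples rad54, rad16 and rhp16 passed in rad3 sep1. Read against those background shares, counts over 9 genes do not set the genes apart from the rest of the genome. The median log2 change over the 9 genes was 0.01 in rad3, 0.06 in cds1, -0.21 in chk1, -0.15 in rad3 sep1 and -0.28 in wild type, where all genes had medians of -0.01, -0.02, -0.00, 0.02 and 0.00. In chk1, where samples with the same replicate number deviated together at all times, the fit with that number as a block called 5 of 9 (1 up, 4 down), adding rad2 at -0.39, rad13 at -0.24 and uve1 at -0.26. These are bulk cultures, in which a change in the share of cells at one cell-cycle stage and a change in RNA per cell cannot be told apart.

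**Figure D1:**
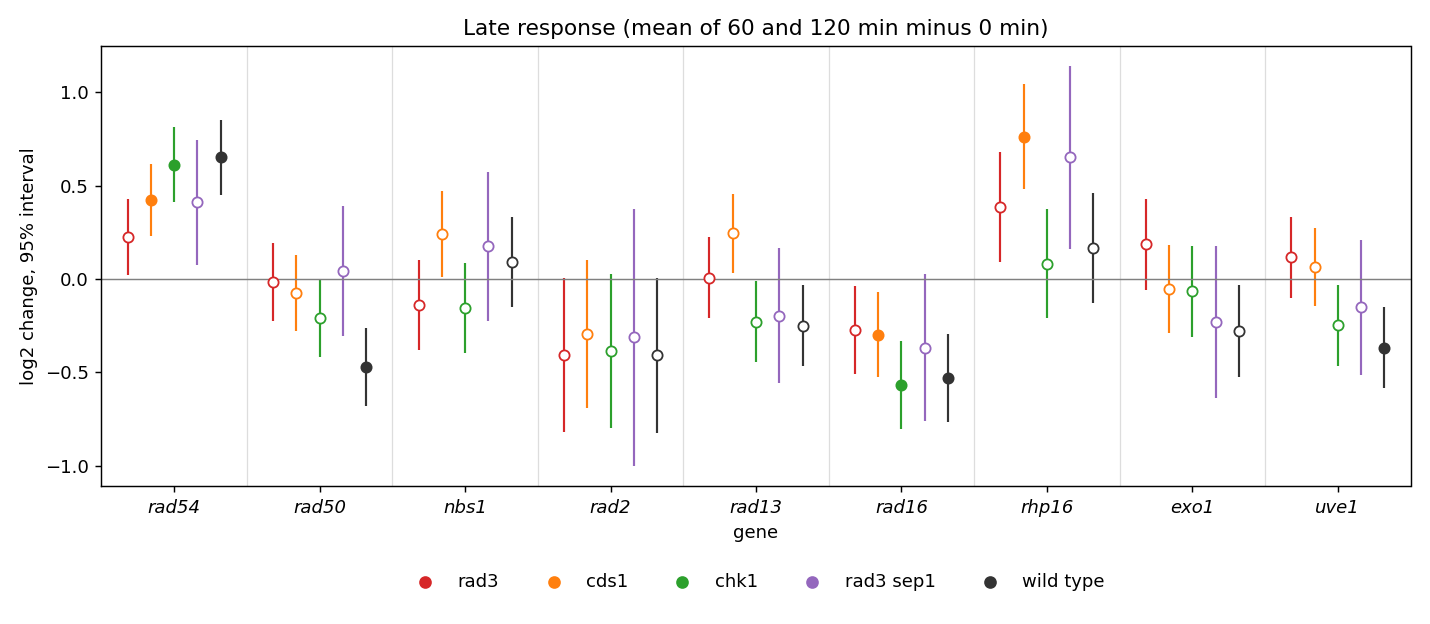
Late response of the 9 repair genes in each strain, as log2 change of the mean of 60 and 120 min over 0 min, with 95% intervals. Filled points passed limma's test after adjustment over all genes: rad54 and rad16 in cds1, chk1 and wild type, rhp16 in cds1, and rad50 and uve1 in wild type.

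Rad54, the recombination translocase, gave the largest increase among the 9 genes in chk1 and wild type. The late rad3 samples had log2 ratios of 0.22 and 0.39 at 60 min and of 0.24, 0.48 and 0.22 at 120 min, against 0.02, 0.07 and 0.16 at 0 min. The late cds1 samples had 0.73, 0.47 and 0.43 at 60 min and 0.52, 0.76 and 0.75 at 120 min, against 0.27, 0.07 and 0.23 at 0 min. The late chk1 samples had 0.42 and 0.72 at 60 min and 0.81, 0.84 and 0.73 at 120 min, against 0.15, 0.02 and 0.04 at 0 min. In each of these strains every late sample lay above every untreated one, by the smallest margin in rad3. The late rad3 sep1 samples had 0.28 at 60 min and 0.36 at 120 min, against -0.09 at 0 min. The late wild-type samples had 0.75 and 0.78 at 60 min and 0.68, 0.85 and 0.65 at 120 min, against 0.11, 0.06 and 0.13 at 0 min. Here too the late samples did not overlap with the untreated ones. The log2 change in cds1 was 0.42 ± 0.10 (SE, adjusted p = 0.00086, limma), a 1.34-fold increase. It was 0.61 ± 0.10 in chk1 (adjusted p = 8.79e-06), or 1.53-fold, and 0.65 ± 0.10 in wild type (adjusted p = 2.95e-06), or 1.57-fold. The change in rad3 was 0.22 ± 0.10 (adjusted p = 0.109) and in rad3 sep1 0.41 ± 0.17 (adjusted p = 0.0903), neither past the threshold. The calls in cds1, chk1 and wild type were kept without any 1 sample, and were lost on the first probe alone. On the second probe alone the change in rad3 passed too (0.44, adjusted p = 0.028), while that in rad3 sep1 did not (0.57, adjusted p = 0.112). With all 70 arrays as samples the change in rad3 sep1 passed (0.41, adjusted p = 0.00218). The probes differed in size: the late change was 0.01 on the first and 0.44 on the second in rad3, 0.20 and 0.65 in cds1, 0.20 and 1.03 in chk1, and 0.34 and 0.96 in wild type.

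The group means show when rad54 transcripts increased. In rad3 the means were 0.08 ± 0.07, 0.12 ± 0.15, 0.14 ± 0.05, 0.30 ± 0.13 and 0.31 ± 0.14 over the times from 0 to 120 min (SD, n = 3, with 2 at 60 min). In cds1 they were 0.19 ± 0.11, 0.21 ± 0.10, 0.36 ± 0.25, 0.55 ± 0.16 and 0.68 ± 0.14 (n = 3). The cds1 mean at 10 min thus lay within 1 SD of its untreated mean. In chk1 they were 0.07 ± 0.07, 0.35 ± 0.08, 0.44 ± 0.20, 0.57 ± 0.21 and 0.79 ± 0.06 at the same times (n = 3, with 2 at 60 min). In wild type they were 0.10 ± 0.04, 0.29 ± 0.15, 0.57 ± 0.09, 0.76 ± 0.02 and 0.73 ± 0.11 (n = 3, with 2 at 30 and 60 min). No change of rad54 at 10 min passed the test in any strain. The early response, 10 and 30 min averaged and set against 0 min, called 0 of 9 genes in every strain, against 2.24% of all genes in rad3, 0.528% in cds1, 1.22% in chk1, 0.142% in rad3 sep1 and 0.772% in wild type. At an unadjusted p under 0.05 these counts were 1, 1, 2, 0 and 1 in the same order of strains. The early change of rad54 was 0.32 in chk1 (adjusted p = 0.0692) and 0.33 in wild type (adjusted p = 0.142). With the replicate number as a block, chk1 had 2 early calls, rad54 at 0.32 (adjusted p = 0.0244) and rad16 at -0.27 (adjusted p = 0.0417). With quantile normalization the early change of rad54 passed in chk1, at 0.39 (adjusted p = 0.0233), and in wild type, at 0.43 (adjusted p = 0.0253).

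**Figure D2:**
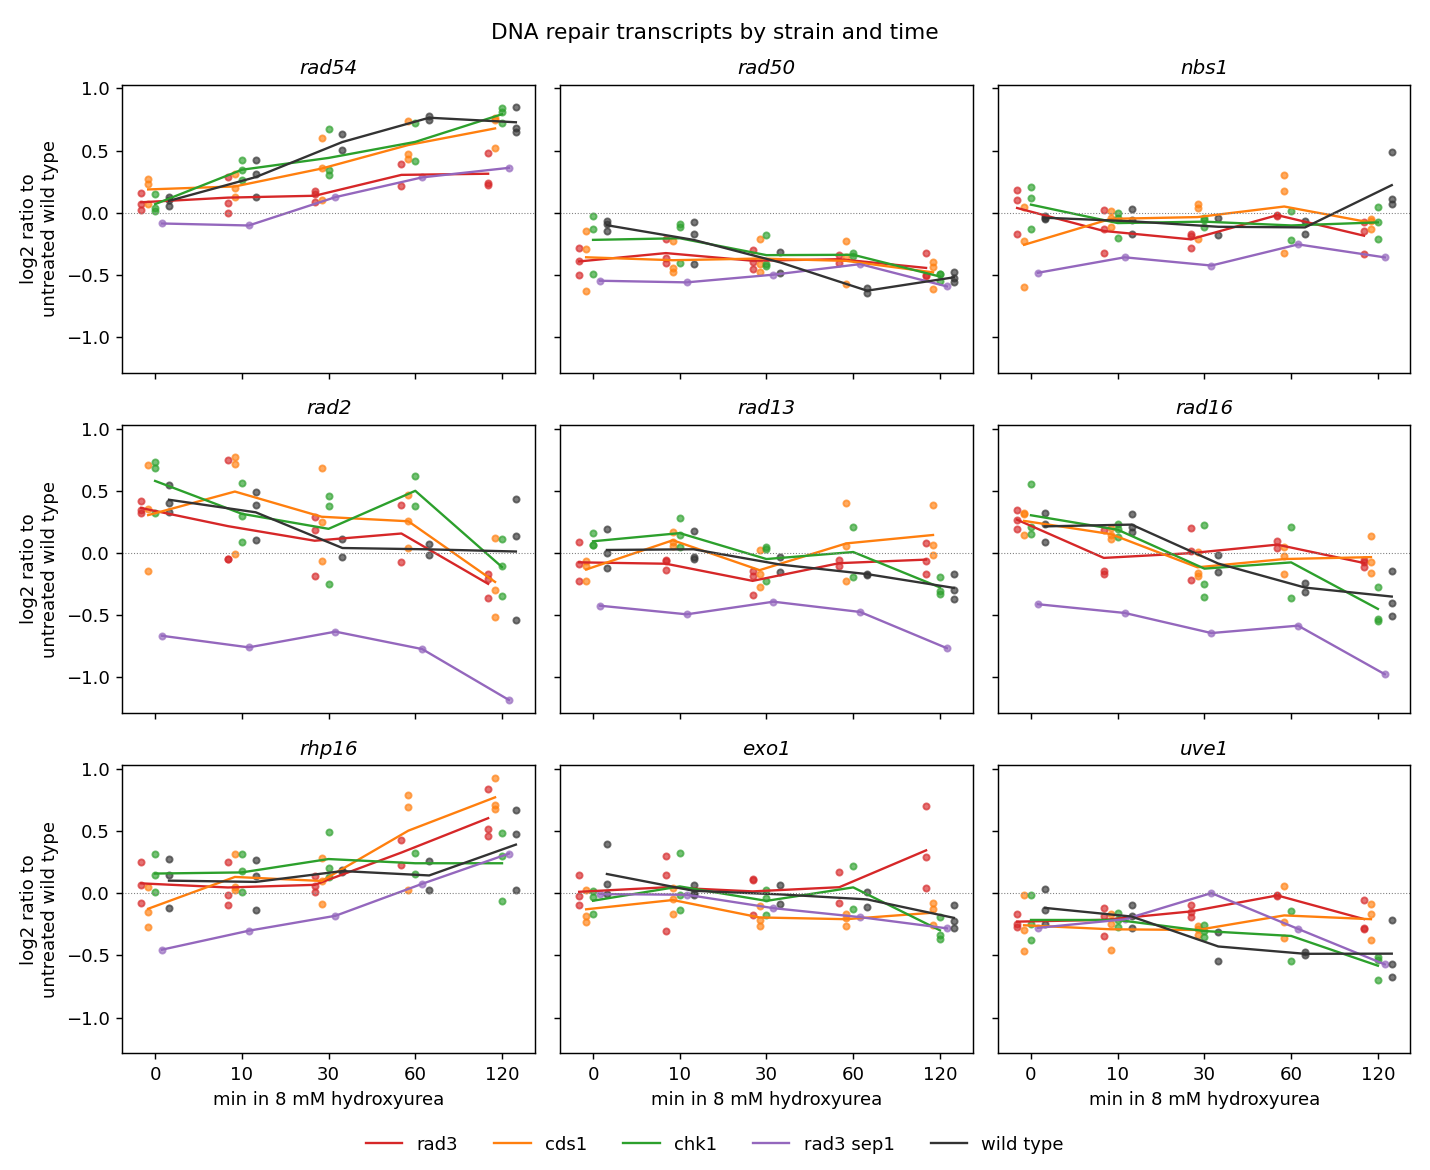
Log2 ratio to untreated wild type of each of the 9 repair genes at 0, 10, 30, 60 and 120 min of 8 mM HU, 1 panel per gene, with the times spaced evenly; points are samples and lines join the group means of a strain. The rad54 line of rad3 ends at 0.31 at 120 min, while that of wild type ends at 0.73.

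The break-end complex is represented among the 9 genes by rad50 and nbs1. For rad50, the ATPase of the complex, the late rad3 samples lay between -0.51 and -0.32, against -0.39, -0.29 and -0.50 at 0 min. The late cds1 samples lay between -0.61 and -0.23, against -0.63, -0.15 and -0.29 at 0 min. Late and untreated samples overlapped in both strains, with changes of -0.02 in rad3 (adjusted p = 0.936) and -0.08 in cds1 (adjusted p = 0.631). In chk1 the late samples lay between -0.55 and -0.33, against -0.49, -0.03 and -0.13 at 0 min, and the change was -0.21 (adjusted p = 0.132). The rad3 sep1 samples had -0.41 at 60 min and -0.59 at 120 min, against -0.55 at 0 min (change 0.04, adjusted p = 0.918). The late wild-type samples had -0.65 and -0.60 at 60 min and -0.52, -0.48 and -0.56 at 120 min, against -0.14, -0.09 and -0.07 at 0 min. All 5 late wild-type samples lay below all 3 untreated ones, and the log2 change was -0.47 ± 0.10 (adjusted p = 0.000649), a fall to 0.721-fold. This call was kept without any 1 sample and on either probe alone. The strain means spread more widely at 0 min than at 120 min, which was not tested. At 120 min they were -0.44 in rad3, -0.48 in cds1, -0.51 in chk1, -0.59 in rad3 sep1 and -0.52 in wild type. At 0 min they were -0.39, -0.36, -0.22, -0.55 and -0.10 in the same order. No single mutant passed against wild type at 0 min (adjusted p = 0.633 to 0.999, limma). The untreated cds1 and chk1 means leaned on replicate 1, at -0.63 and -0.49. The 2 probes of rad50 went against each other over the 70 arrays (r = -0.215), and their late changes had opposite signs in rad3 (0.27 and -0.31), cds1 (0.18 and -0.33) and chk1 (0.07 and -0.49). In wild type both were negative, at -0.39 and -0.56.

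For nbs1, the subunit that links the complex to the Tel1 kinase, late and untreated samples overlapped in the 4 strains with replicates. The late wild-type samples had -0.17 and -0.06 at 60 min and 0.11, 0.07 and 0.49 at 120 min, against -0.04, -0.05 and -0.02 at 0 min. Its late change was -0.14 ± 0.12 in rad3, 0.24 ± 0.11 in cds1, -0.15 ± 0.12 in chk1, 0.18 ± 0.20 in rad3 sep1 and 0.09 ± 0.12 in wild type. Adjusted p values were 0.115 to 0.646. The gene of the third subunit, mre11, is in the lists of other repair genes and is given here after its values were seen. It passed in no strain, with late changes of -0.24 in rad3, -0.06 in cds1, 0.17 in chk1, -0.19 in rad3 sep1 and 0.10 in wild type (adjusted p = 0.199 to 0.773).

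Among the nucleotide excision genes, rad16 fell and rhp16 rose, in partly different strains. For rad16, the XPF-type nuclease, the late rad3 samples had 0.10 and 0.04 at 60 min and -0.12, -0.07 and -0.05 at 120 min, against 0.20, 0.26 and 0.34 at 0 min. The late cds1 samples had -0.17, 0.05 and -0.02 at 60 min and 0.13, -0.07 and -0.16 at 120 min, against 0.32, 0.14 and 0.31 at 0 min. Late and untreated samples did not overlap in either strain, though by a small margin in cds1. The late chk1 samples had 0.21 and -0.36 at 60 min and -0.27, -0.53 and -0.55 at 120 min, against 0.55, 0.15 and 0.21 at 0 min. The late wild-type samples had -0.31 and -0.25 at 60 min and -0.40, -0.50 and -0.15 at 120 min, against 0.09, 0.32 and 0.24 at 0 min. All late wild-type samples lay below all untreated ones, while 1 late chk1 sample lay among the untreated ones. The log2 change was -0.57 ± 0.12 in chk1 (adjusted p = 0.000283) and -0.53 ± 0.12 in wild type (adjusted p = 0.00075). Both calls were kept without any 1 sample and on either probe. The change in rad3 was -0.27 ± 0.12 (adjusted p = 0.0948) and in rad3 sep1 -0.37 ± 0.20 (adjusted p = 0.226), short of the threshold. The change in cds1, -0.30 ± 0.11, passed narrowly (adjusted p = 0.0459) and was lost in 7 of 9 fits without 1 sample, with values of -0.36 to -0.27. The samples it needed were all 3 at 0 min, replicates 1 and 3 at 60 min and replicates 2 and 3 at 120 min. It was also lost when arrays were centred (-0.28, adjusted p = 0.0637), with quantile normalization (-0.31, adjusted p = 0.0522) and on either probe alone (adjusted p = 0.209 on the first and 0.0984 on the second).

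For rhp16, of global excision repair, the late cds1 samples had 0.03, 0.79 and 0.70 at 60 min and 0.68, 0.92 and 0.71 at 120 min, against -0.27, -0.15 and 0.05 at 0 min. All but 1 late sample, at 60 min, lay above all untreated ones. The log2 change was 0.76 ± 0.14 (adjusted p = 5.33e-05), a 1.7-fold increase, kept without any 1 sample and on either probe. The late rad3 samples had 0.22 and 0.43 at 60 min and 0.46, 0.84 and 0.51 at 120 min, against -0.08, 0.25 and 0.07 at 0 min. These overlapped by 1 sample, and the change in rad3 was 0.39 ± 0.15 (adjusted p = 0.0546), just short of the threshold. It passed when arrays were centred (0.41, adjusted p = 0.0335), with all 70 arrays (0.37, adjusted p = 0.0268) and with the replicate block (0.37, adjusted p = 0.00301). It did not pass with quantile normalization (0.33, adjusted p = 0.168) or on either probe alone. In rad3 sep1 the late samples had 0.08 and 0.32, against -0.45 at 0 min, with a change of 0.65 ± 0.24 (adjusted p = 0.059). The late change was smaller in the remaining strains, at 0.08 ± 0.15 in chk1 (adjusted p = 0.715) and 0.17 ± 0.15 in wild type (adjusted p = 0.443). Rad13, the XPG-type nuclease, did not pass the late test in any strain in the fit as reported: its change was 0.01 in rad3, 0.24 in cds1, -0.23 in chk1, -0.20 in rad3 sep1 and -0.25 in wild type. Adjusted p values were 0.0787 to 0.974. The change in cds1 passed narrowly when arrays were centred (0.27, adjusted p = 0.0452), with quantile normalization (0.29, adjusted p = 0.0478), with all 70 arrays (0.24, adjusted p = 0.0498), with the replicate block (0.24, adjusted p = 0.037) and on the first probe alone (0.37, adjusted p = 0.0241). With all 70 arrays and with the replicate block those in chk1 (adjusted p = 0.0293 and 0.0479) and wild type (adjusted p = 0.0409 and 0.0471) passed too.

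Rad2, the flap endonuclease, was the most variable of the 9 between replicates, with a within-group SD of 0.279 that exceeded that of 97.4% of genes. The late wild-type samples had -0.02 and 0.07 at 60 min and 0.14, -0.54 and 0.43 at 120 min, against 0.55, 0.33 and 0.41 at 0 min. At 120 min 1 wild-type sample thus lay among the untreated ones and another far below. Part of this spread went with the replicate number. Replicate 2 was lowest at each time in cds1, and in chk1 at each time where it was a sample of its own. The late change of rad2 was between -0.41 and -0.29 in the 5 strains, with adjusted p values of 0.146 to 0.638. With the replicate block it passed in rad3 (-0.38, adjusted p = 0.0256), chk1 (-0.39, adjusted p = 0.0177) and wild type (-0.41, adjusted p = 0.014). In cds1 it did not (-0.29, adjusted p = 0.0674). The within-group SD of the other 8 genes was 0.136 to 0.198, against a median of 0.161 over all genes. For exo1, the resection exonuclease, the late change was 0.19 ± 0.12 in rad3, -0.05 ± 0.12 in cds1, -0.07 ± 0.12 in chk1, -0.23 ± 0.20 in rad3 sep1 and -0.28 ± 0.12 in wild type (adjusted p = 0.0872 in wild type and higher elsewhere). Its 2 probes followed each other little over the arrays (r = 0.115).

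For uve1, the UV damage endonuclease, the late rad3 samples lay between -0.29 and -0.01, against -0.17, -0.25 and -0.27 at 0 min, and the change was 0.12 ± 0.11 (adjusted p = 0.489). The change was 0.06 ± 0.10 in cds1 (adjusted p = 0.704), -0.25 ± 0.11 in chk1 (adjusted p = 0.0791) and -0.15 ± 0.18 in rad3 sep1 (adjusted p = 0.669). None of these passed. The late wild-type samples had -0.47 and -0.50 at 60 min and -0.57, -0.68 and -0.21 at 120 min, against -0.25, 0.03 and -0.14 at 0 min. The groups overlapped by 1 late sample. The log2 change in wild type was -0.37 ± 0.11 (adjusted p = 0.00985). It was -0.29 (adjusted p = 0.0956) without replicate 2 at 0 min, and the call was also lost with quantile normalization and on the first probe alone.

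**Figure D3:**
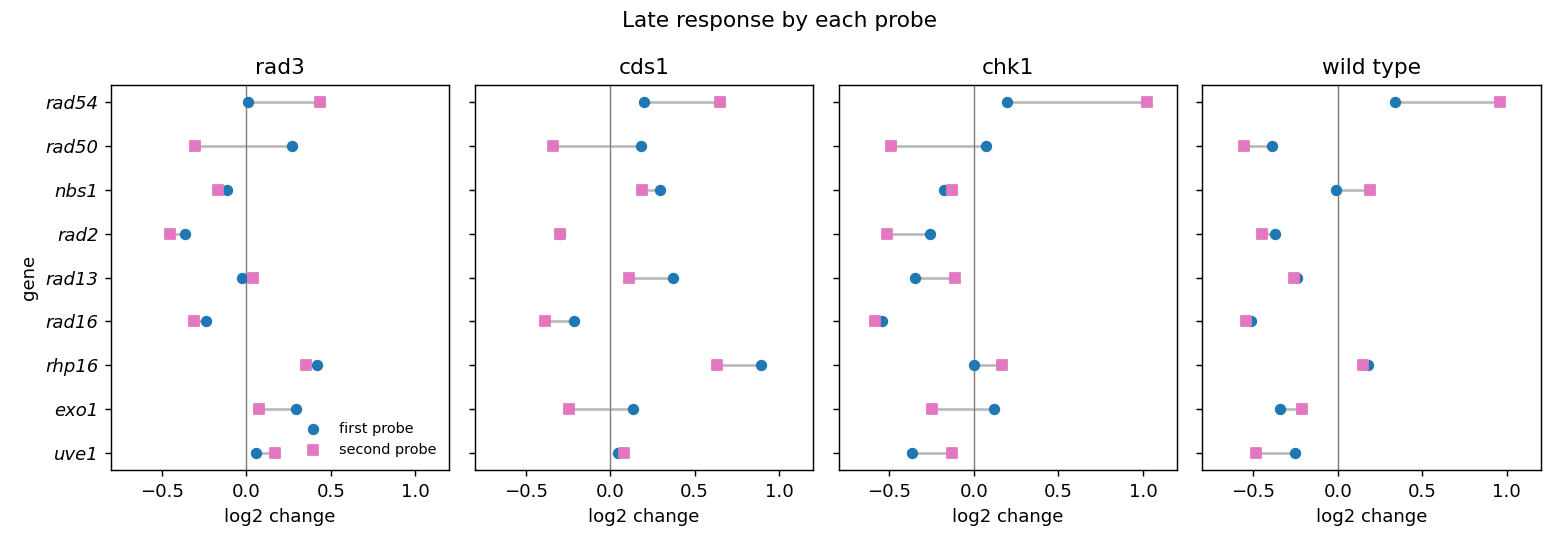
Late log2 change of each of the 9 repair genes over 0 min on its first probe (circles) and its second (squares), joined by a line, in rad3, cds1, chk1 and wild type. The probes of rad54 lie far apart, at 0.20 and 1.03 in chk1, and those of rad50 have opposite signs in rad3, cds1 and chk1.

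At single times calls over all genes were most numerous at 120 min in every strain. The 9 genes went the same way, except in cds1, which had 2 calls at both 60 and 120 min. At 10 min 0 of 9 genes passed in any strain, against 0.325% of all genes in rad3, 0.102% in cds1, 0.244% in chk1, 0.061% in rad3 sep1 and 0.284% in wild type. At an unadjusted p under 0.05 there was 1 gene in rad3 and 1 in chk1. At 30 min 2 of 9 genes passed in chk1 (4.92% of all genes), rad54 at 0.37 (adjusted p = 0.0394) and rad16 at -0.43 (adjusted p = 0.0424). In wild type 1 of 9 passed (0.975% of all genes), rad54 at 0.47 (adjusted p = 0.0431). The count at 30 min was 0 of 9 in rad3 (1.73% of all genes), cds1 (1.52%) and rad3 sep1 (0.467%), with 1, 1 and 0 genes at an unadjusted p under 0.05. In chk1 both calls at 30 min were lost in 4 of 6 fits without 1 sample. The call of rad54 in wild type was lost without any 1 of its 5 samples, with values of 0.41 to 0.54.

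At 60 min 2 of 9 genes passed in cds1 (8.47% of all genes), rhp16 at 0.63 (adjusted p = 0.00854) and rad54 at 0.36 (adjusted p = 0.0338). In chk1 1 of 9 passed (4% of all genes), rad54 at 0.50 (adjusted p = 0.0119). No gene passed at 60 min in rad3 (2.91% of all genes) or rad3 sep1 (5.2%), where the count was 0 also at an unadjusted p under 0.05. Wild type had 3 of 9 (9.71% of all genes): rad54 at 0.67 (adjusted p = 0.000276), rad50 at -0.53 (adjusted p = 0.00577) and rad16 at -0.49 (adjusted p = 0.0239). Without 1 sample the calls at 60 min were lost in 3 of 6 fits each for rhp16 and rad54 in cds1, in 2 of 5 for rad54 in chk1, and in 2 of 5 for rad50 and 4 of 5 for rad16 in wild type. That of rad54 in wild type was kept in all 5. At 120 min chk1 had 6 of 9 (36.7% of all genes): rad54 rose by 0.72, and rad16 at -0.75, rad2 at -0.69, rad13 at -0.37, uve1 at -0.37 and rad50 at -0.30 fell (adjusted p = 1.48e-06 to 0.0399). Without 1 sample the calls of rad2, uve1 and rad13 there were lost in 3 of 6, 2 of 6 and 1 of 6 fits. The fall of rad50 was lost in 5 of 6 fits without 1 sample, at -0.43 to -0.20, and turned to 0.10 on the first probe alone (adjusted p = 0.666).

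The late change averages 2 times, and rad3 had 3 of 9 genes past the threshold at 120 min alone (29% of all genes). There rhp16 rose by 0.52 (adjusted p = 0.0122), while rad2 at -0.61 (adjusted p = 0.0384) and rad16 at -0.35 (adjusted p = 0.0386) fell. Without 1 sample these calls were lost in 2 of 6, 6 of 6 and 5 of 6 fits, in that order of genes. In cds1 2 of 9 passed at 120 min (28.1% of all genes), rhp16 at 0.90 (adjusted p = 3.14e-05) and rad54 at 0.49 (adjusted p = 0.000716), both kept without any 1 sample. In rad3 sep1 1 of 9 passed (18.1% of all genes), rhp16 at 0.77 (adjusted p = 0.0473), a call lost without array 2 at 0 min or array 1 at 120 min. Wild type had 5 of 9 at 120 min (25.1% of all genes), rad54 at 0.63 and rad16 at -0.56, rad50 at -0.42, uve1 at -0.37 and exo1 at -0.35 (adjusted p = 2.18e-05 to 0.0477). Those of exo1 and uve1 were lost in 4 of 6 and 3 of 6 fits without 1 sample.

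Whether the late response of a mutant differed from that of wild type was tested as an interaction in the same fit. With limma none of the 9 genes passed in any mutant in the fit as reported: 0 of 9 in rad3 (1.3% of all genes), cds1 (2.15%), chk1 (0% of all genes, that is, no gene on the array) and rad3 sep1 (2.44%). At an unadjusted p under 0.05 these counts were 4, 4, 0 and 1. After adjustment all 70 arrays as separate samples gave 3 calls for rad3, 1 for cds1 and 1 for rad3 sep1, and the replicate block gave 4, 4 and 1. The late change of rad54 in rad3 minus that in wild type was -0.43 ± 0.14 (95% interval -0.71 to -0.14, adjusted p = 0.148). For rad50 this difference was 0.46 ± 0.15 (0.16 to 0.75, adjusted p = 0.133), for uve1 0.48 ± 0.15 (0.18 to 0.79, adjusted p = 0.122) and for exo1 0.46 ± 0.17 (0.12 to 0.81, adjusted p = 0.219). In cds1 the difference was 0.60 ± 0.20 for rhp16 (0.19 to 1.00, adjusted p = 0.121) and 0.49 ± 0.15 for rad13 (0.19 to 0.80, adjusted p = 0.0711). There it was 0.40 ± 0.14 for rad50 (0.11 to 0.69, adjusted p = 0.145) and 0.43 ± 0.15 for uve1 (0.13 to 0.73, adjusted p = 0.128), and in rad3 sep1 0.52 ± 0.20 for rad50 (0.11 to 0.92, adjusted p = 0.226). Thus a gene called in one strain and not in another was not shown to differ between them after adjustment in the fit as reported. Such a gene was rad54, called in wild type but not in rad3 in the fit as reported, though its second probe alone passed in rad3. With the replicate block its difference between rad3 and wild type passed, at -0.44 (adjusted p = 0.0424). It did not pass when arrays were centred (-0.42, adjusted p = 0.154). In chk1 the difference for rad54 was -0.04, with an interval of -0.32 to 0.25. These 4 comparisons share the wild-type samples. The late change of rad3 sep1 minus that of rad3 also called 0 of 9 (0.813% of all genes, 0 at an unadjusted p under 0.05), with rad54 at 0.18 (interval -0.21 to 0.57).

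**Figure D4:**
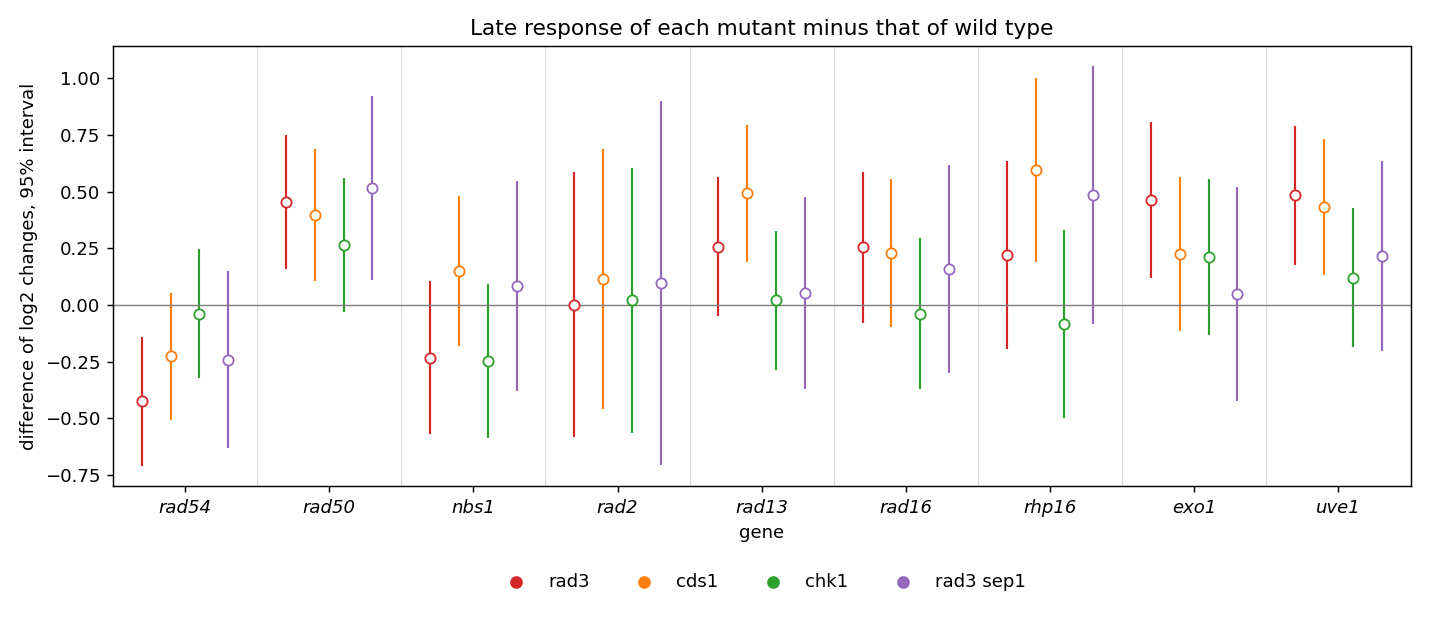
Late log2 change of each mutant minus that of wild type for the 9 repair genes, with 95% intervals; open points did not pass limma's test after adjustment over all genes. No point passed, and the intervals of rad54, rad50, exo1 and uve1 in rad3 exclude 0 before adjustment. So do those of rhp16, rad13, rad50 and uve1 in cds1 and of rad50 in rad3 sep1.

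Without HU, 3 genes were lower in rad3 sep1 than in wild type and none was called in the single mutants. With limma, 0 of 9 passed in rad3 (0.955% of all genes), cds1 (0.122%) and chk1 (0.142%), with 1, 2 and 0 at an unadjusted p under 0.05. In rad3 sep1 3 of 9 passed (18.9% of all genes). Its single untreated sample had -0.67 for rad2, against 0.55, 0.33 and 0.41 in wild type (difference -1.09 ± 0.32, adjusted p = 0.0136). It had -0.41 for rad16, against 0.09, 0.32 and 0.24 in wild type (difference -0.63 ± 0.18, adjusted p = 0.0135). It had -0.55 for rad50, against -0.14, -0.09 and -0.07 in wild type (difference -0.45 ± 0.16, adjusted p = 0.0473). All 3 values lay below every untreated wild-type sample. The call of rad50 was lost when arrays were centred, with quantile normalization and on the first probe. All 9 differences were negative, with a median of -0.45, where the median of all genes was -0.05. Among all genes 659 passed as lower and 273 as higher, and the share of all genes with a negative difference was not counted. This strain has 1 sample at 0 min, and one of its 2 arrays was shifted as a whole against the other.

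Likeness between genes was described by correlation over the 25 group means, which share libraries and a common reference. Pearson's r was 0.887 between rad2 and rad16, 0.874 between rad13 and rad16 and 0.857 between rad2 and rad13. These values rest partly on rad3 sep1, where all 3 genes were low: over the 20 means of the other strains r was 0.650 between rad2 and rad16, 0.618 between rad13 and rad16 and 0.398 between rad2 and rad13. Over those 20 means rad54 ran opposite to rad16 (r = -0.820), uve1 (r = -0.710) and rad50 (r = -0.691). With rad3 sep1 included, over the 25 means, these values were -0.147 for rad16, -0.589 for uve1 and -0.265 for rad50. The features closest to rad54 over the 25 means were aca1 (r = 0.909), his3 (0.896), uba1 (0.893), liz1 (0.880) and mrs3 (0.878). Their late changes in wild type were 0.61, 0.41, 0.48, 0.50 and 0.75. The features closest to rad50 were upf2 (r = 0.821), set1 (0.819), cyp7 (0.817), mis12 (0.813) and rsm27 (0.811), with late changes in wild type of -0.44, -0.36, -0.53, -0.60 and -0.74.

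Other repair genes were taken from 7 lists of repair pathways with 70 genes, of which 65 were matched on the array and 64 tested. In the late response 5 of the 64 passed in rad3 (2 up, 3 down), 9 in cds1 (3 up, 6 down), 17 in chk1 (4 up, 13 down), 3 in rad3 sep1 (1 up, 2 down) and 17 in wild type (4 up, 13 down). That is 7.81%, 14.1%, 26.6%, 4.69% and 26.6%, beside 19.3%, 25%, 27.5%, 16.2% and 24.4% of all genes. The counts per list that follow cover 4 to 17 genes each and stand beside the same shares. No list was tested as a set. With the replicate number as a block, 26 passed in chk1. The list medians were -0.05, -0.01, -0.10, -0.14 and -0.12, where medians of all genes lay between -0.02 and 0.02. The Smc5-Smc6 list holds 8 subunit genes of this complex, which acts at stalled forks, and brc1, which is no subunit. Of these 9 genes 5 fell in chk1 (smc5, smc6, nse2, nse3 and nse4) and 3 in wild type (smc6, nse3 and nse5), and 0 rose in either. Of the genes in brackets, smc5, nse2 and nse5 are named after their values were seen. Among them smc6 changed by -0.38 in chk1 (adjusted p = 0.0126) and -0.37 in wild type (adjusted p = 0.015), and nse4 by -0.54 in chk1 (adjusted p = 0.00935). In rad3 1 of the 9 fell, smc6 at -0.42 (adjusted p = 0.00705), beside 19.3% of all genes called. The gene nse3, whose product binds Nse4, fell by 0.32 on the log2 scale in chk1 (adjusted p = 0.016).

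Of 9 genes of post-replication repair, 1 fell and 2 rose in chk1 (27.5% of all genes called), and 2 rose in wild type (24.4%). These 2 were the translesion polymerase genes rev1 and kpa1, the largest increases among the named repair genes. In chk1 rev1 rose by 0.91 ± 0.16 (adjusted p = 3.80e-05) and kpa1 by 1.29 ± 0.19 (adjusted p = 1.23e-06), and in wild type by 1.24 ± 0.16 (adjusted p = 1.17e-07) and 0.96 ± 0.19 (adjusted p = 0.000156). In rad3 their changes were 0.36 (adjusted p = 0.118) and -0.06 (adjusted p = 0.857), and in cds1 0.35 (adjusted p = 0.0991) and 0.20 (adjusted p = 0.452). The gene that fell was rhp18, of the Rad18 ubiquitin ligase, at -0.38 in chk1 (adjusted p = 0.0138).

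Of 17 recombination genes, 1 rose and 2 fell in cds1 (25% of all genes called) and 3 fell in chk1 (27.5%). In wild type 1 rose and 4 fell (24.4%). The recombination mediator gene rad57 fell by 0.74 on the log2 scale in chk1 (adjusted p = 2.55e-06) and by 0.33 in wild type (adjusted p = 0.0263). Its change in cds1, -0.29, also passed (adjusted p = 0.0476). The related gene rlp1 changed by -0.43 in cds1 (adjusted p = 0.00274), -0.48 in chk1 (adjusted p = 0.0012) and -0.41 in wild type (adjusted p = 0.00615). The gene of the small replication protein A subunit, ssb3, rose by 0.52 in cds1 (adjusted p = 0.00286) and fell by 0.44 in wild type (adjusted p = 0.0141). Of 7 genes of break ends and end joining, 2 rose in chk1, the end-trimming cofactor ctp1 at 0.48 (adjusted p = 0.0137) and the kinase gene tel1 at 0.48 (adjusted p = 0.0164). In wild type ctp1 rose by 0.42 (adjusted p = 0.0361), a call that was lost in 5 of 8 fits without 1 sample and turned to -0.087 with quantile normalization (adjusted p = 0.747). The end-joining ligase gene lig4 changed by -0.80 in rad3 sep1 (adjusted p = 0.0193) and -0.49 in wild type (adjusted p = 0.0127).

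Of 9 other excision repair genes, 4 passed in cds1 (2 up, 2 down) and 3 in rad3 (1 up, 2 down), beside 25% and 19.3% of all genes. In chk1 2 passed (both down) and in wild type 1 (down), beside 27.5% and 24.4%. The lesion recognition gene rhp7 rose by 0.22 in rad3 (adjusted p = 0.0346), 0.52 in cds1 (adjusted p = 2.92e-07) and 0.48 in rad3 sep1 (adjusted p = 0.00584). In wild type its change was 0.07 (adjusted p = 0.533). The XPA homologue gene rhp14 fell by 0.45 on the log2 scale in chk1 (adjusted p = 0.0162), and ddb1 by 0.36 in cds1 (adjusted p = 0.0203). Of 9 genes of base excision and single-strand repair, 1 fell in cds1, 2 in chk1, 1 in rad3 sep1 and 3 in wild type. In wild type these were the endonuclease genes apn1 at -0.39 (adjusted p = 0.0128) and apn2 at -0.28 (adjusted p = 0.0371) and the phosphodiesterase gene tdp1 at -0.37 (adjusted p = 0.0256). The fall in cds1 was that of tdp1, at -0.35 (adjusted p = 0.0303). Those in chk1 were of apn1 at -0.32 (adjusted p = 0.0338) and tdp1 at -0.38 (adjusted p = 0.021). Of 4 mismatch repair genes, msh6 rose by 0.31 in rad3 (adjusted p = 0.0184), and msh1 changed by -0.34 in cds1 (adjusted p = 0.0487) and -0.36 in wild type (adjusted p = 0.0434). Without any 1 sample the calls of rev1 and kpa1 in chk1 and wild type, rlp1 in cds1 and chk1, rad57 in chk1, ssb3 and rhp7 in cds1 and apn1 in wild type were kept. So were those of lig4, rhp7 and apn2 in rad3 sep1, and the other calls of these named repair genes were lost in 1 or more such fits. Those of apn2 and msh1 in wild type were lost in 7 of 8.

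**Figure D5:**
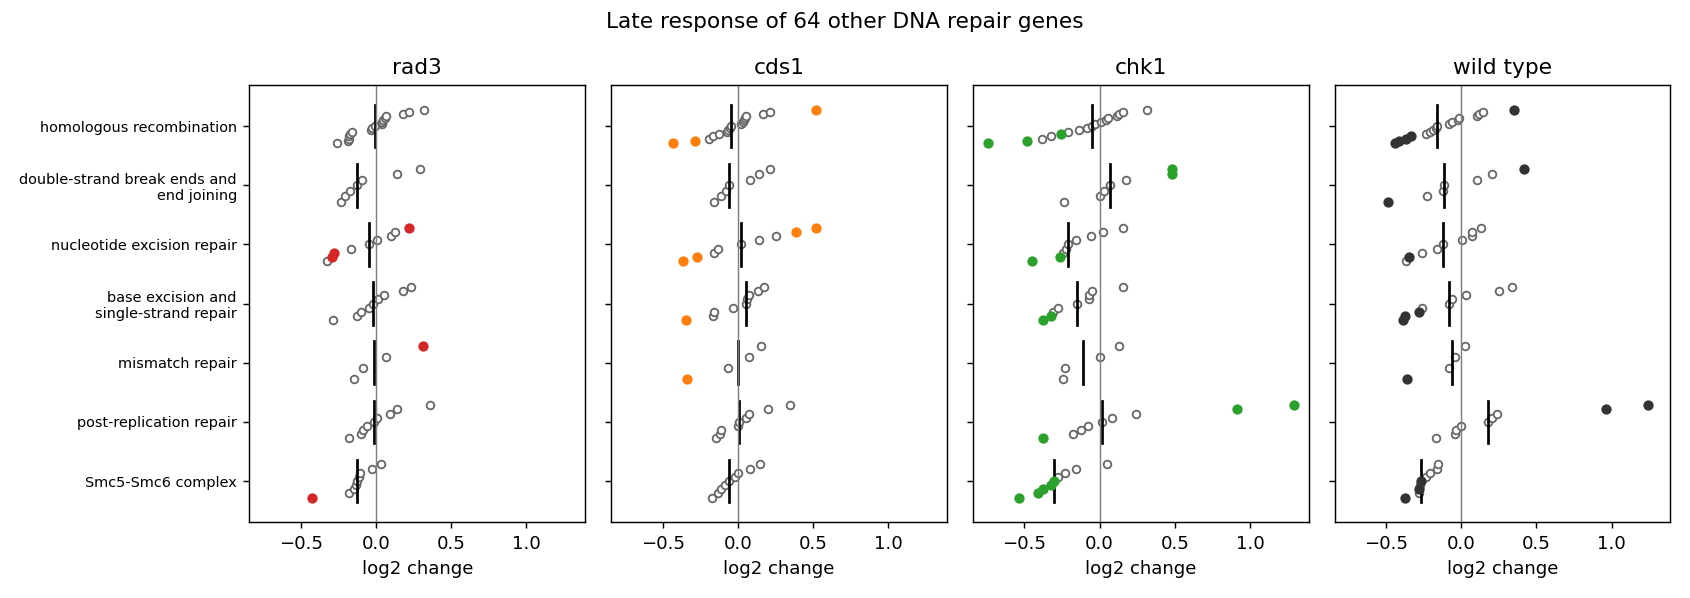
Late log2 change of the other repair genes in rad3, cds1, chk1 and wild type, grouped by the 7 pathway lists; each point is a gene, filled where it passed limma's test after adjustment over all genes, and each black bar is a list's median. The points farthest to the right in chk1 and wild type are rev1 and kpa1 of post-replication repair.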

How the data were processed

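RNA of fission yeast cultures was hybridised to 70 2-colour arrays. The deposited values were log2 ratios of Cy5 (the sample) to Cy3 (untreated wild type), per the labels; how they were normalized is not stated in the sources used here. Array medians ran from -0.154 to 0.0552, and no further scaling was applied. The 2 probes of a feature were averaged, and 4921 of 4929 features were tested.

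The series text calls the repeats biological. Of 65 pairs of arrays within groups, 9 were averaged because their difference did not repeat between probes (r of -0.00233 to 0.0317, threshold 0.07, against 0.113 to 0.488 in the others). The averaged arrays were both of rad3 sep1 at each of the 5 times, 1 and 3 of rad3 (60 min), 2 and 3 of chk1 (60 min), and in wild type 1 and 3 (30 min) and 2 and 3 (60 min).

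Means of the 25 groups were fitted with limma 3.58.1 (lmFit, eBayes) in R 4.3.3, with Benjamini-Hochberg adjustment over all features and a threshold of 0.05; the code was tested on simulated data. Python 3.11.15 with pandas 2.3.3, scipy 1.17.1, matplotlib 3.10.9 and numpy 2.4.6 made the tables and figures. Intervals are those of the fit; the number of arrays limits precision. Pairing by replicate number was checked first: deviations from group means of same-numbered samples had r over 0.1 in 22 of 22 pairs within chk1 (0.308 to 0.649), in 14 of 15 within wild type, 28 of 30 within cds1 and 19 of 22 within rad3. Numbers were taken to pair samples only where every pair had r over 0.1. That held in chk1 and, at 0 min, for cds1 or chk1 with wild type (3 of 3 pairs each). By this strict rule the other strains count as unpaired, though median r was 0.391 within wild type, 0.410 within cds1 and 0.359 within rad3. The fit as reported pairs no samples.

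The 9 genes and the lists were chosen with earlier results of these data known. Named genes were the 9, the mutated genes, up to 3 genes per list with the smallest adjusted p in a late response of the 4 replicated strains, and the 5 features most like rad54 and rad50. The 5 listed genes without a match were not analysed here. Alternatives were median centring, quantile normalization, either probe alone, all 70 arrays as samples, other filters, robust eBayes, only the strains compared, the replicate number as a block, and leaving out each sample.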

Additional observations from a re-analysis of the deposited data

Results flagged for a closer look

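By limma's interaction test as reported, none of the 9 repair genes had a late response that differed between a mutant and wild type, while the replicate block and all 70 arrays gave the calls listed under the processing. Of the 64 other repair genes tested, 2 passed in rad3 (1.3% of all genes), 4 in cds1 (2.15%) and 0 in chk1 and rad3 sep1, where 5 each had an unadjusted p under 0.05. Those among the 20 genes named for their late changes were rev1, kpa1, ssb3 and rhp7, and the other was rhp42 in cds1, named after its value was seen. Late changes of rev1 were 0.36 in rad3 and 0.35 in cds1, against 1.24 in wild type, with differences of -0.88 ± 0.23 (adjusted p = 0.0395) and -0.89 ± 0.23 (adjusted p = 0.0241). The change of kpa1 was -0.06 in rad3, against 0.96 in wild type, a difference of -1.03 ± 0.27 (adjusted p = 0.0383). The rad3 differences of rev1 and kpa1 each lost their call in 10 of 16 fits without 1 sample, with values of -1.05 to -0.75 and of -1.15 to -0.90. The cds1 difference of rev1 did so in 4 of 17, at -1.02 to -0.78. The change of ssb3 was 0.52 in cds1, against -0.44 in wild type, a difference of 0.96 ± 0.19 (adjusted p = 0.00126), kept without any 1 sample and lost on the first probe alone. The change of rhp7 was 0.52 in cds1, against 0.07 in wild type, a difference of 0.45 ± 0.11 (adjusted p = 0.0112), lost without replicate 3 of wild type at 0 min.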

How the results depend on the processing

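Counts are of the 9 genes past the threshold, with the count of the fit as reported in brackets. In the late response of wild type (4) the first probe alone gave 2 and the replicate block 7. In rad3 (0) centring, the second probe, all 70 arrays and the strain alone gave 1 each, the replicate block 3, and leaving out 1 sample 0 to 1. In cds1 (3) the block gave 5, and centring and quantile normalization also gave 3 but with rad13 in place of rad16. In chk1 (2) the second probe and all 70 arrays gave 4 each, the block 5, and leaving out 1 sample 2 to 4. In rad3 sep1 (0) all 70 arrays gave 3 and leaving out 1 array 0 to 2. In the early response (0 in each strain) quantile normalization and all 70 arrays gave 1 in wild type, the block gave 1 in rad3, and in chk1 quantile normalization, the second probe and all 70 arrays gave 1 each and the block 2. For untreated rad3 sep1 (3) all 70 arrays and the block gave 6 each, and leaving out 1 sample 2 to 6. For the late difference from wild type (0), rad3 had 3 with all 70 arrays, 1 with its own strains only, 4 with the block (rad54, rad50, exo1 and uve1) and 0 to 1 without 1 sample. There cds1 had 1 with all 70 arrays, 4 with the block (rad50, rad13, rhp16 and uve1) and 0 to 2 without 1 sample, and rad3 sep1 had 1 with all 70 arrays and 1 with the block.

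Over single times, wild type (9) had 3 and 4 on the first and second probe. In rad3 (3) quantile normalization gave 0, the first probe 1 and leaving out 1 sample 1 to 3. In cds1 (4) the block gave 9, and in chk1 (9) the first probe gave 3, the strain alone 5 and leaving out 1 sample 4 to 10. In rad3 sep1 (1) quantile normalization and either probe gave 0, all 70 arrays 6 and leaving out 1 array 0 to 2. Of the 64 other repair genes, late calls in wild type (17) were 11 with quantile normalization, 7 and 4 on the first and second probe, and 5 to 15 without 1 sample. In rad3 (5) they were 2 and 3 on the first and second probe, 9 with 70 arrays, 11 with the block and 0 to 5 without 1 sample. In cds1 (9) they were 4 on the second probe, 5 in the strain alone and 4 to 8 without 1 sample. In chk1 (17) they were 7 on the second probe, 26 with the block and 10 to 18 without 1 sample. In rad3 sep1 (3) they were 0 with quantile normalization and on the second probe, 18 with 70 arrays and 3 to 5 without 1 array.

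On a single value, rad50 at 120 min in chk1 was 0.10 on the first probe and ctp1 in the late response of wild type was -0.087 with quantile normalization, both against their reported sign. No block or single-strain fit was possible within rad3 sep1, which has 1 sample per time. Outside chk1 and the untreated pairs named above, not all same-numbered samples deviated together, though most did within wild type, cds1 and rad3. Counts with the block there are therefore given as alternatives. In the untreated cds1 and chk1 comparisons the block left 0 calls. The cause of these changes was not tested. Limits include the 1 to 3 samples per group, the probes that differ in size for rad54 and in sign for rad50, and the unstated normalization.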
